A study of Mus musculus with 14 samples.

Results

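Microtubules are hollow polymers of paired alpha and beta tubulin proteins, and mice have several beta tubulin genes, called isotypes, whose products share most of their sequence and mix in the same polymer. The isotypes differ most at the tail of the protein, where enzymes add or remove amino acids, and in the tissues that use them. Tubb5 and Tubb4b are made in most cell types, Tubb2a and Tubb2b are best known from the nervous system, Tubb3 is a common marker of neurons, and Tubb6 is widely made at low levels and is known from muscle and cultured cells. Cells also adjust tubulin mRNA to the pool of free tubulin: the protein TTC5 binds the start of the nascent tubulin chain on the ribosome and, through SCAPER and the CCR4-NOT deadenylase complex, triggers decay of the mRNA.

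The genes described are 6 beta tubulin genes, Tubb2a, Tubb2b, Tubb3, Tubb4b, Tubb5 and Tubb6, of 27179 genes in the keratinocyte table and 24411 in the epidermis table. They were chosen by the keratinocyte contrast, in which the counts of Tubb2b were lower in p63beta, so their values in keratinocytes are given as a description and the tests are those in epidermis. All 6 passed the filter on low counts in both kinds of sample.

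The series compares 2 genotypes of newborn mice. In p63beta mice (KRT14-Cre; Trp63-Ex13fl/fl), Cre recombinase driven by the keratin 14 promoter removes the floxed exon 13 of Trp63, the gene of the epidermal transcription factor p63, and with it the alpha C-terminus. The p63alpha mice (Trp63-Ex13fl/fl) carry the same floxed alleles, are given no Cre in the labels, and are the control. Keratinocytes were grown in low-calcium medium, with 3 p63beta and 3 p63alpha libraries, and whole epidermis, parted from the dermis with trypsin, gave 4 p63beta and 4 p63alpha libraries. The promoter limits the deletion to cells that use keratin 14, so melanocytes or nerve cells in the tissue are not its target. Nothing in the labels ties a library to its own animal, and p-values therefore reflect library-to-library spread, which may be technical.

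Keratinocyte libraries held 20688027 to 30066041 counted pairs of reads, and those of epidermis 21290068 to 44909629 counts estimated by salmon. In epidermis, 2 of 8 Trp63 transcripts were at 0 TPM in every p63beta library, against 37.5 to 107 TPM and 8.19 to 14.1 TPM in p63alpha libraries (TPM, a level divided by transcript length and scaled to the same total in every library). In keratinocytes the Trp63 gene total, which does not show the exon, was 132 to 145 TPM in p63beta and 65.4 to 72.3 TPM in p63alpha libraries. Basal keratinocyte markers were high in cultures of both genotypes, with Krt14 at 10899 to 13278 TPM in p63beta and 10566 to 16315 TPM in p63alpha libraries. Markers of heart and skeletal muscle summed to 5207 TPM in p63beta culture library 3, against 265 to 565 TPM in the other 5 cultures, and fibroblast markers summed to 1595 TPM in p63alpha culture library 3, against 143 to 269 TPM in the others. The keratinocyte labels number the cultures 1 to 3 in each genotype and do not state that they are pairs. The numbers were taken as pairs here, because deviations of same-number cultures 1, 2 and 3 correlated at 0.553, 0.47 and 0.129. For culture 3 this was no higher than between cultures of different numbers (0.14 and 0.159), so its pairing is uncertain. Epidermis libraries had 2 kinds of column name, EP numbers (3 p63beta and 3 p63alpha) and 1 library of each genotype named KO2 and WT3.

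The starts of the coding sequences are shown because TTC5 recognises the protein stretch that they encode. Each is the first 36 coding bases, 5′ to 3′, of the GENCODE M21 transcript matched to RefSeq (GRCm38), and the capitals mark the first 12 bases, which are the first 4 codons.
Tubb2a: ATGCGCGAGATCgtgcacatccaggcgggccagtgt
Tubb2b: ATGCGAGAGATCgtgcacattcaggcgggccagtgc
Tubb3: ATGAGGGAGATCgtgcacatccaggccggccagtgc
Tubb4b: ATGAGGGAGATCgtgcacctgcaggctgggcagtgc
Tubb5: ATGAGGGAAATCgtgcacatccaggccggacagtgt
The first 12 bases of Tubb3 and Tubb4b were identical, and those of Tubb2a, Tubb2b and Tubb5 were each different. In every sequence shown, these bases encode the same 4 amino acids, methionine, arginine, glutamate and isoleucine. Tubb3 lies on the plus strand of chromosome 8 (chr8:123411424-123422015), Tubb4b on the minus strand of chromosome 2 (chr2:25222160-25224702) and Tubb5 on the minus strand of chromosome 17 (chr17:35833921-35838306). The annotated transcript of each of the 6 genes had 4 exons.

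Tubb2a (chr13:34074274-34078007) and Tubb2b (chr13:34126748-34130466) are neighbours on the minus strand, 48740 bases apart. Their coding sequences were both 1338 bases long, with 47 differing bases and 96.5% identity. The last 60 coding bases, which encode the tail where isotypes usually differ most, are shown with the 3 differing bases in capitals. None of the 3 changes an amino acid, so both stretches encode the same tail.
Tubb2a: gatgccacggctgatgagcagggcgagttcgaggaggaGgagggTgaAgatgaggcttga
Tubb2b: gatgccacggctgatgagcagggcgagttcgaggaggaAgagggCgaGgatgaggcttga
This likeness bears on how reads were assigned: 49.6% of the 50-base stretches of the Tubb2a transcript and 39.3% of those of Tubb2b occurred in a transcript of another gene, mostly each other. For Tubb4b the share was 55.5%, mostly with the pseudogene Tubb4b-ps1, and for Tubb5, Tubb3 and Tubb6 it was at most 0.1%. Tubb4b-ps1 had no entry among the genes of either kind of sample, so division by salmon concerns mainly Tubb2a and Tubb2b. With 100-base stretches, 36.9% of Tubb2a, 27.7% of Tubb2b and 30.6% of Tubb4b were still shared. The keratinocyte counting command had no option for multi-mapping reads, while salmon, used for epidermis, divides shared reads by an estimate, so values of Tubb2a, Tubb2b and Tubb4b are uncertain in a way those of Tubb3, Tubb5 and Tubb6 are not. The pseudogene Tubb2a-ps2 was at most 1.21 TPM in every culture. Without the multi-mapping option, reads that it shares with another gene would not be counted for it, so this level does not bear on shared reads.

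In cultured keratinocytes, Tubb2b was the 1 member of the 6 whose levels did not overlap between genotypes. It was at 91.0, 82.4 and 78.1 TPM in p63beta libraries 1, 2 and 3, against 145, 144 and 133 TPM in p63alpha libraries 1, 2 and 3. The groups did not overlap in TPM, as for 4.53% of all genes tested in this direction, and p63beta culture 1, the highest of its group, lay below every p63alpha culture. The means were 83.8 ± 6.54 TPM in p63beta and 140.7 ± 7.08 TPM in p63alpha (SD, n = 3 each). The log2 fold change, p63beta over p63alpha, was -0.77 ± 0.08 (SE), which is 0.585 times the p63alpha level, and within the numbered pairs, on the CPM scale (counts scaled by library size), it was -0.71, -0.84 and -0.77. This is the value that chose the genes: its adjusted p was 0.0436 in edgeR's quasi-likelihood test with Benjamini-Hochberg adjustment over 13820 genes. In that fit 0.101% of all genes (14 genes, 13 higher and 1 lower in p63beta) passed an adjusted p under 0.05, and Tubb2b was the 1 lower gene (0.00724%). With the replicate number as a block, 37 genes passed (0.268%), and Tubb2b had an adjusted p of 0.0431.

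The fold change of Tubb2b moved little with the libraries used, from -0.82 to -0.75 when any 1 of the 6 was left out, but its edgeR adjusted p was then 0.0890 to 0.412, so the call was lost each time. Without p63beta culture 3, with the high muscle markers, the fold change was -0.75, and without p63alpha culture 3, with the high fibroblast markers, it was -0.81. In the authors' deposited table Tubb2b had a shrunken log2 fold change of -0.75, a value pulled towards 0 by design, with an adjusted p of 4.16e-14 by DESeq2. That result comes from the same 6 libraries and the contrast that chose the genes, and adds no independent evidence. Schwann cell markers summed to 180, 156 and 141 TPM in p63beta and 176, 207 and 228 TPM in p63alpha cultures 1, 2 and 3. Of these markers 3 of 10 were higher in mean in p63beta, and none was at 0 throughout a group. The fitted log2 fold change was above 0 for 1 of the 8 tested, against 49.7% of all genes tested. Proliferation genes, 1 of 16 with a fitted log2 fold change above 0, summed to 1098, 825 and 783 TPM in p63beta and 1208, 835 and 818 TPM in p63alpha cultures 1, 2 and 3, lower in p63beta in each pair. Melanocyte markers, 2 of 12 above 0, summed to 985, 1088 and 875 TPM in p63beta and 474, 1199 and 1702 TPM in p63alpha cultures. By mean TPM, 3 of 16 proliferation genes and 3 of 12 melanocyte markers were higher in p63beta. Other marker lists differed: fitted log2 fold changes were above 0 for 10 of 10 muscle, 6 of 8 Merkel cell and 6 of 9 fibroblast markers tested. For endothelium they were above 0 in 3 of 4, for neurons in 2 of 3 and for immune cells in 1 of 5. For basal and suprabasal keratinocytes it was 3 of 6 each. The part of these lists in the Tubb2b value was not tested. In bulk RNA, fewer cells of a type and less RNA per cell cannot be told apart.

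Tubb2a, the near-copy of Tubb2b, was at 184.5, 133.2 and 114.8 TPM in p63beta cultures 1, 2 and 3, against 235.7, 188.4 and 173.6 TPM in p63alpha cultures 1, 2 and 3. The groups overlapped, because p63beta culture 1 lay above p63alpha culture 3, yet within each pair the p63beta culture was the lower. The within-pair log2 differences in CPM were -0.39, -0.53 and -0.60. The log2 fold change in the main fit, without pairing, was -0.49 ± 0.19 (SE), which was not called (edgeR adjusted p 0.699). With the replicate number as a block it was -0.51 ± 0.07 (SE), also not called (edgeR adjusted p 0.09245). Of all 13820 genes, 19.3% were lower in CPM in p63beta within all 3 pairs. The ratio of Tubb2a to Tubb2b level was 2.03, 1.62 and 1.47 in p63beta and 1.62, 1.31 and 1.31 in p63alpha cultures 1, 2 and 3, so it was higher in p63beta within each pair. The summed level of both genes was 275, 216 and 193 TPM in p63beta and 381, 333 and 306 TPM in p63alpha cultures, without overlap. Both the ratio and the sum hold Tubb2b, whose lower level chose the genes, and add no independent evidence.

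**Figure D1:**
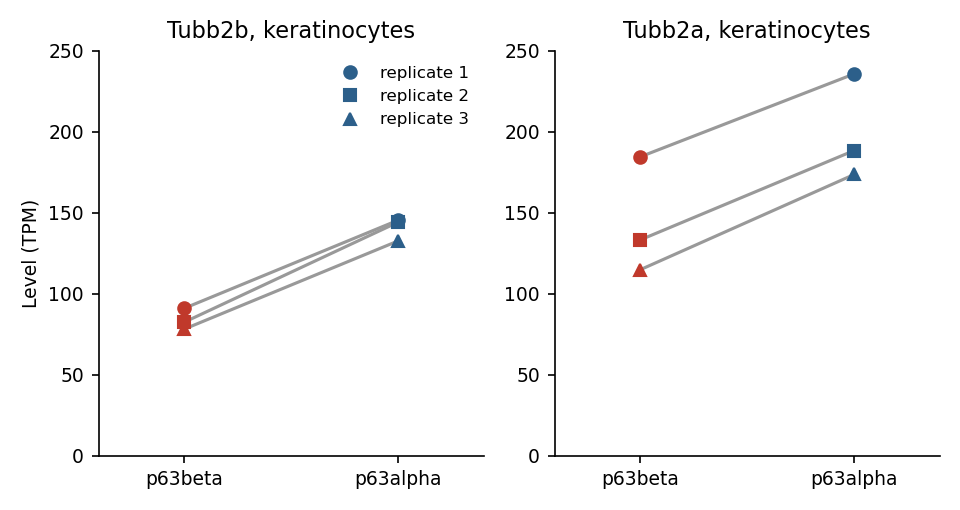
Level in TPM of Tubb2b (left) and Tubb2a (right) in cultured keratinocytes, p63beta in red and p63alpha in blue, with lines joining cultures of the same replicate number. Tubb2b lay at 78.1 to 91.0 TPM in p63beta and 133 to 145 TPM in p63alpha cultures, and both genes were lower in p63beta in each pair.

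The other 4 isotypes overlapped between genotypes in culture. Tubb5, the most abundant, was at 1132, 988 and 943 TPM in p63beta and 1040, 961 and 1033 TPM in p63alpha cultures 1, 2 and 3, a log2 fold change of -0.01 ± 0.10 (SE). Tubb4b was at 802, 881 and 855 TPM in p63beta and 784, 804 and 757 TPM in p63alpha cultures, a log2 fold change of 0.09 ± 0.09. Its lowest p63beta culture was just under its highest p63alpha culture. Tubb6 was at 605, 531 and 523 TPM in p63beta and 584, 430 and 482 TPM in p63alpha cultures, a log2 fold change of 0.13 ± 0.13. Tubb3 was the most variable, at 162, 120 and 96.1 TPM in p63beta and 124, 79.6 and 147 TPM in p63alpha cultures, a log2 fold change of 0.08 ± 0.27. It was higher in p63beta in pairs 1 and 2 and lower in pair 3. Because the abundant isotypes carried most of the total, the summed level of the 6 genes overlapped, at 2976, 2736 and 2610 TPM in p63beta and 2913, 2607 and 2725 TPM in p63alpha cultures.

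**Figure D2:**
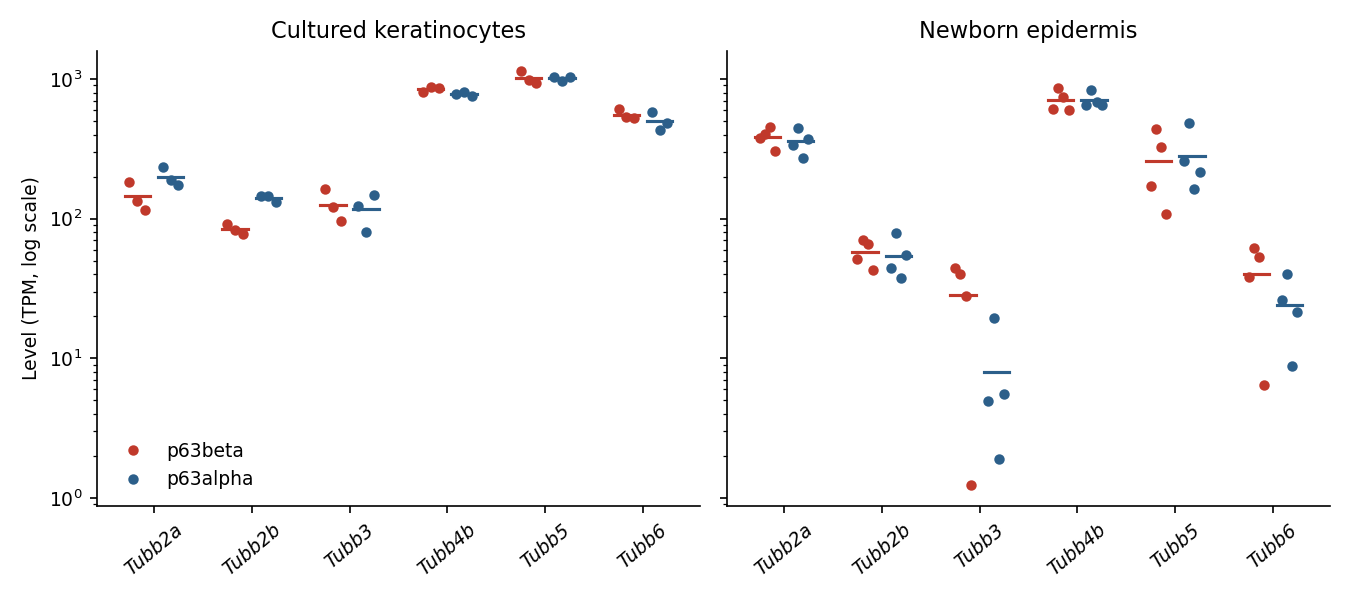
Level in TPM (log scale) of the 6 beta tubulin genes in every library, p63beta in red left of p63alpha in blue, with bars at the group means. In culture only Tubb2b separated the genotypes among the 6 genes, and in epidermis all 6 overlapped, with Tubb3 spanning 1.23 to 44.4 TPM in p63beta.

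In epidermis, none of the 6 genes passed the test, where 0.232% of all 13796 genes passed (32 genes, 30 higher and 2 lower in p63beta). By edgeR's quasi-likelihood test 0 of 6 had an unadjusted p under 0.05, against 4.64% of all genes. By DESeq2 1 of 6 did, Tubb3, against 5.37% of all genes, with 0 called after adjustment, where DESeq2 called 0.836% of all genes. For 2.73% of all genes, but none of the 6, the genotypes did not overlap in TPM. Tubb2b was at 51.2, 69.8, 65.9 and 43.2 TPM in p63beta libraries KO2, EP10, EP11 and EP12, against 44.7, 78.7, 37.6 and 55.4 TPM in p63alpha libraries EP07, EP08, WT3 and EP09. The groups overlapped throughout their range. The log2 fold change was 0.21 ± 0.20 (SE, 95% interval -0.24 to 0.67), with an edgeR adjusted p of 0.9999. The difference in effect between epidermis and culture was not tested, because the culture value chose the genes and the 2 tables were made by different pipelines and normalised separately.

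Tubb2a was at 376, 406, 451 and 304 TPM in p63beta KO2, EP10, EP11 and EP12, against 338, 443, 273 and 374 TPM in p63alpha EP07, EP08, WT3 and EP09, with a log2 fold change of 0.23 ± 0.17 and an edgeR adjusted p of 0.9999. Its ratio to Tubb2b was 5.82 to 7.34 in p63beta and 5.63 to 7.56 in p63alpha epidermis. Tubb4b was at 603 to 866 TPM in p63beta and 650 to 839 TPM in p63alpha epidermis, a log2 fold change of 0.09 ± 0.17, and its mean was 705 TPM in both. Tubb5 was at 171, 438, 326 and 109 TPM in p63beta, against 258, 482, 164 and 216 TPM in p63alpha epidermis, a log2 fold change of 0.00 ± 0.40. Its direction changed with the setting, for example to -0.18 in limma on log2 TPM.

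Tubb3 and Tubb6 had the largest fitted differences of the 6 in epidermis, with wide errors. Tubb3 was at 44.4, 39.9, 27.9 and 1.23 TPM in p63beta KO2, EP10, EP11 and EP12, against 4.98, 19.4, 1.89 and 5.51 TPM in p63alpha EP07, EP08, WT3 and EP09. Of the p63beta libraries 3 lay above every p63alpha library, and EP12 lay below them all. The log2 fold change was 2.06 ± 0.97 (95% interval -0.14 to 4.26), with an unadjusted p of 0.0627 and an adjusted p of 0.9999 in edgeR. Leaving out 1 library gave 1.62 to 2.94, and without EP12 it was 2.46 with an edgeR adjusted p of 0.264. With the EP-numbered libraries alone, chosen after seeing the data, it was 1.31. With a term for the kind of column name it was 2.02, and in limma on log2 TPM it was 1.43 with a pseudocount of 1 and 1.48 with 0.1. KO2 and WT3 give 1 library a genotype and so no spread of their own.

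Tubb6 was at 38.4, 62.0, 53.2 and 6.48 TPM in p63beta KO2, EP10, EP11 and EP12, against 26.1, 40.4, 8.85 and 21.3 TPM in p63alpha EP07, EP08, WT3 and EP09. Here too EP12 was the lowest library, and WT3 the lowest of its group. The log2 fold change was 0.87 ± 0.60 (edgeR adjusted p 0.9999), 1.23 without EP12 (adjusted p 0.318), 0.56 with EP-numbered libraries alone, 0.96 with the column-name term and 0.51 in limma with either pseudocount. Across the 8 libraries the log2 levels of Tubb3 and Tubb6 had a Pearson r of 0.952, a description of points that share library composition. This was not particular to the pair: Tubb3 had an r of 0.956 with Tubb2a and 0.909 with Tubb2b. With Tubb5 and Tubb4b its r was lower, at 0.71 and 0.601.

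Summed markers of cell types and of proliferation also varied between the epidermis libraries, in part in step with these genes. Basal keratinocyte markers (Krt5, Krt14, Krt15, Itga6, Itgb4, Col17a1; none at 0, 3 of 6 higher in mean TPM in p63beta, 5 of 6 with a fitted log2 fold change above 0) summed to 13648, 16627, 15239 and 6341 TPM in p63beta KO2, EP10, EP11 and EP12, against 10811, 14719, 6657 and 14009 TPM in p63alpha EP07, EP08, WT3 and EP09. The 2 libraries lowest in this sum, EP12 and WT3, were the lowest of their groups in Tubb3, Tubb6 and Tubb5, and also in Tubb2a and Tubb2b. In Tubb4b the lowest were EP12 in p63beta, at 603 TPM, and EP09 in p63alpha, at 650 TPM. Proliferation genes summed to 349, 764, 585 and 220 TPM in p63beta, against 469, 730, 297 and 487 TPM in p63alpha epidermis, with EP10 and EP08 highest, as for Tubb5, while KO2, the highest in Tubb3, was among the low libraries. Melanocyte markers, 12 of 12 higher in mean in p63beta and none at 0, summed to 261 to 383 TPM in p63beta and 88.0 to 253 TPM in p63alpha epidermis, so that EP12, the lowest in Tubb3 and Tubb6, lay above every p63alpha library in this sum. The part of these lists in the tubulin values was not tested. Neuron markers were near 0: the 12 genes summed to 0.293 to 4.98 TPM in p63beta and 0.675 to 1.32 TPM in p63alpha epidermis, with Dcx at 0 in all 8 libraries and 11 of 12 higher in mean in p63beta. In KO2, the library with the most Tubb3, the sum was the lowest, at 0.293 TPM. Merkel cell markers summed to 9.84 to 12.1 TPM in p63beta and 7.54 to 16.0 TPM in p63alpha epidermis.

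**Figure D3:**
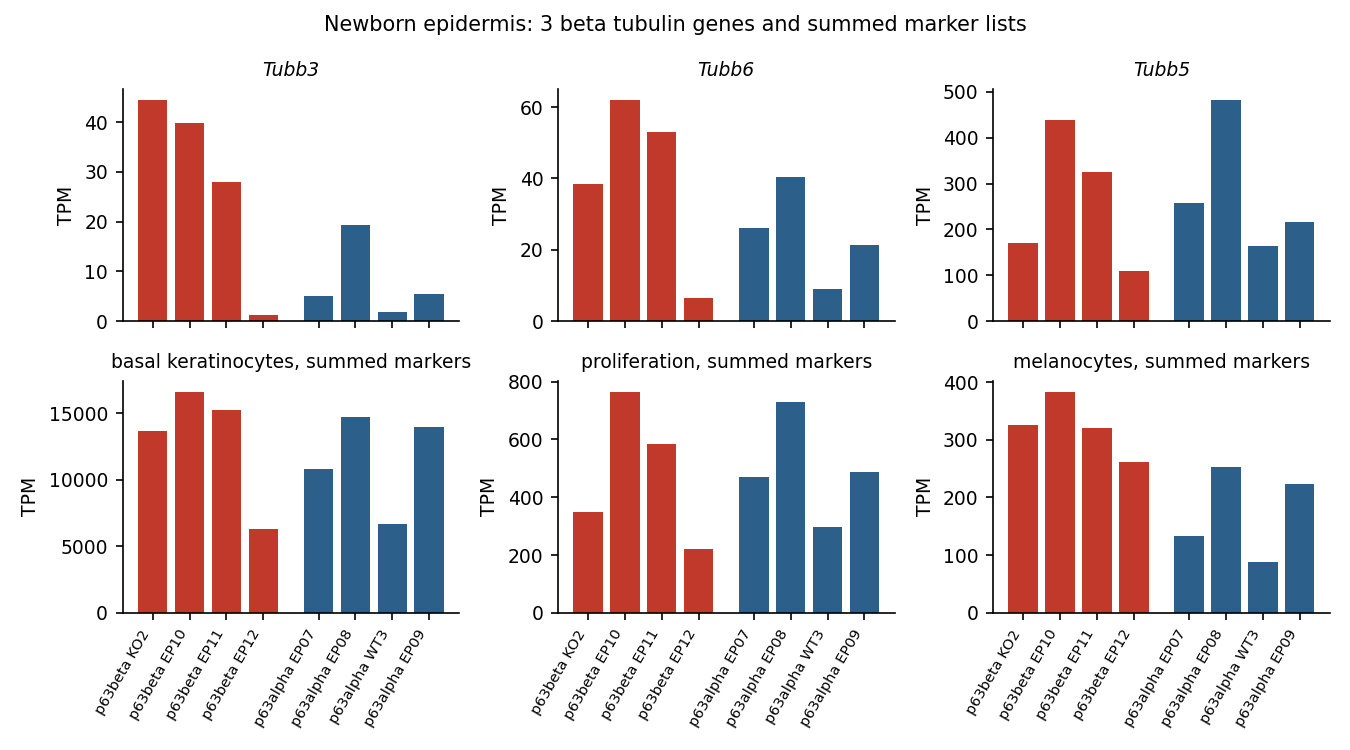
Level of Tubb3, Tubb6 and Tubb5 (top) and summed level of the basal keratinocyte, proliferation and melanocyte markers (bottom) in TPM in each epidermis library, p63beta in red and p63alpha in blue, with every axis starting at 0. EP12 and WT3 are the lowest of their groups for all 3 genes and for the basal markers, and also for Tubb2a and Tubb2b, which are not shown.

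The makeup of the beta tubulin pool differed by kind of sample more visibly than by genotype. In culture the order of levels was Tubb5, Tubb4b, Tubb6 and Tubb2a in both genotypes, each below its predecessor in all 3 libraries. The last 2 places changed: Tubb3 came before Tubb2b in p63beta, in all 3 libraries, and Tubb2b before Tubb3 in p63alpha, in 2 of 3. Tubb2a and Tubb3 overlapped in p63beta, as did Tubb2b and Tubb3 in p63alpha cultures. In epidermis the order of mean levels was Tubb4b, Tubb2a, Tubb5, Tubb2b, Tubb6 and Tubb3 in both genotypes. In EP10 and EP08 Tubb5 lay above Tubb2a, and in KO2 Tubb3 lay above Tubb6. There Tubb2a and Tubb5 overlapped in both genotypes, as did Tubb2b with Tubb6 and Tubb6 with Tubb3.

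As shares of the summed level, Tubb2b made up 3.02% ± 0.03 in p63beta and 5.13% ± 0.35 in p63alpha cultures (SD, n = 3 each). In epidermis it made up 3.92% ± 0.15 in p63beta and 3.73% ± 0.50 in p63alpha (SD, n = 4 each). Tubb4b took 48.6% ± 5.40 in p63beta and 50.2% ± 5.95 in p63alpha epidermis, against 30.6% ± 3.22 and 28.5% ± 2.07 in p63beta and p63alpha cultures. Tubb2a took 26.6% ± 3.44 in p63beta and 25.1% ± 2.36 in p63alpha epidermis, against 5.16% ± 0.93 and 7.23% ± 0.86 in the cultures. Tubb6 was the reverse, with 2.52% ± 1.28 in p63beta and 1.62% ± 0.61 in p63alpha epidermis, against 19.9% ± 0.49 and 18.1% ± 1.80 in the cultures. No test was made between culture and epidermis. Shared reads were handled differently in the 2 tables, which bears on Tubb2a, Tubb2b and Tubb4b. The culture counts had no multi-mapping option, and leaving out shared reads can lower these genes there. Culture was also the side where Tubb2a and Tubb4b had the smaller shares. In epidermis salmon divided shared reads by an estimate, but Tubb4b-ps1 had no entry in either table. The part of this handling in the shares was not tested.

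**Figure D4:**
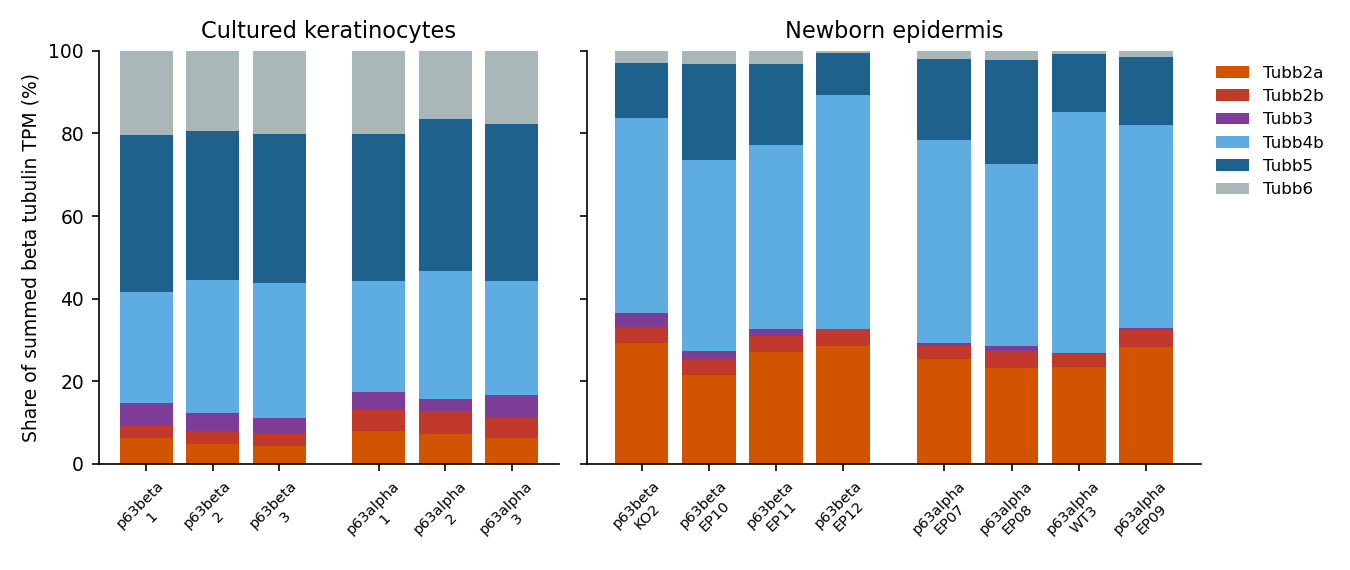
Share in percent of each isotype in the summed TPM of the 6 beta tubulin genes, as 1 stacked bar for each library, p63beta left of p63alpha. Tubb2b is the narrow red band, 3.02% in p63beta and 5.13% in p63alpha cultures on average, and Tubb4b is the largest band in all 8 epidermis libraries.

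The alpha tubulins, the partners of beta tubulin in each dimer, were read beside these genes, along with lists for folding, mRNA decay and microtubule binding. No gene of any of these lists passed the test in either kind of sample. In culture the log2 fold change was above 0 for 0 of 6 tested alpha tubulins, and their median was -0.20 against -0.00 over all genes. Tuba4a was at 471, 450 and 447 TPM in p63beta and 551, 478 and 476 TPM in p63alpha cultures, without overlap, as were 4.53% of all genes in this direction. Its log2 fold change was -0.16 ± 0.09 and its edgeR adjusted p 0.804. Tuba1a (-0.23 ± 0.14), Tuba1b (-0.06 ± 0.11), Tuba1c (-0.00 ± 0.08) and Tuba8 (-0.59 ± 0.44) overlapped between genotypes, as did Tuba3b, at no more than 3.53 TPM. In epidermis it was above 0 for 3 of 5, and the median was 0.06 against -0.00 over all genes. Tuba3a and Tubal3 passed the filter in neither, and Tuba3b in culture alone.

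**Figure D5:**
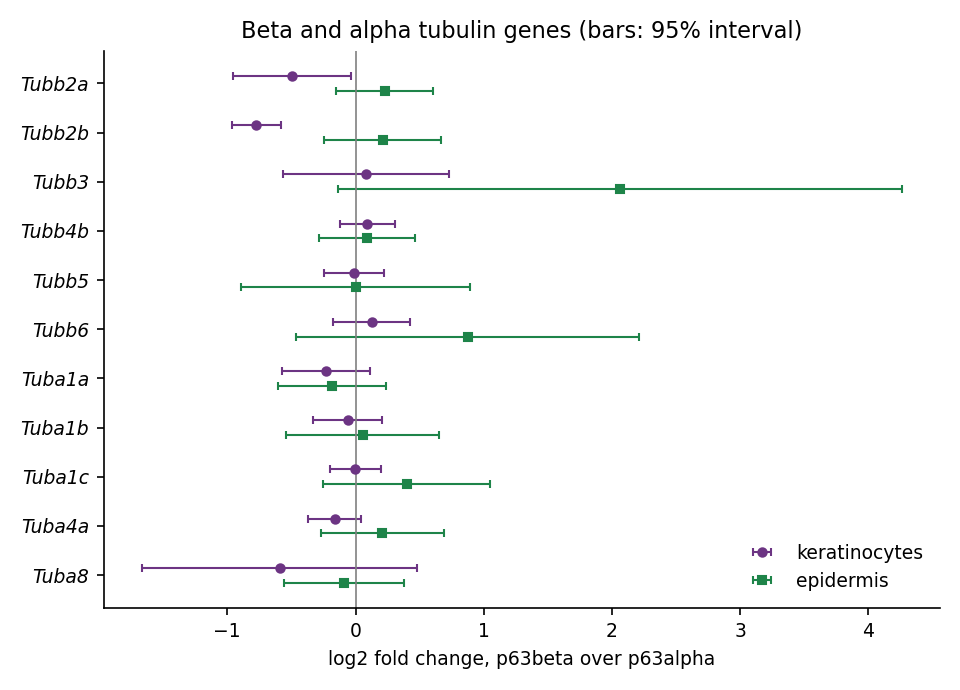
Log2 fold change, p63beta over p63alpha, of the 6 beta tubulin genes and of 5 alpha tubulin genes in keratinocytes (circles) and epidermis (squares), with bars for the 95% interval of edgeR's fit. Among the intervals shown, only those of Tubb2b and Tubb2a in keratinocytes lie below 0; that contrast chose the genes, the intervals are not adjusted for the number of genes, and Tubb2a was not called (edgeR adjusted p 0.699).

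Of the remaining beta tubulins, Tubb4a, known from oligodendrocytes and neurons, was at 9.12, 2.66 and 0.916 TPM in p63beta and 1.48, 0.693 and 15.4 TPM in p63alpha cultures, and failed the filter in epidermis. The 2 cultures with the most Tubb4a, p63alpha 3 and p63beta 1, also had the highest neuron marker sums, 7.22 and 5.95 TPM, against 1.17 to 1.77 TPM in the other 4. They were also the 2 highest in Tubb3, at 147 and 162 TPM, against 79.6 to 124 TPM in the other 4. Of the 12 neuron markers 3 passed the filter in culture. Rbfox3 was at 0 in all cultures and Dcx at 0 in all p63beta cultures. Any link between the levels of Tubb4a, Tubb3 and the neuron markers was not tested. Tubb1, the platelet isotype, failed the filter in both kinds of sample.

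The folding list holds prefoldin, the CCT chaperonin and the tubulin cofactors, which together build the dimer. In culture 4 of 21 had a positive log2 fold change (median -0.05), and in epidermis 18 of 21 (median 0.17), against 49.7% and 49.3% of all genes. Cct4, a chaperonin subunit, was at 484 to 515 TPM in p63beta and 511 to 589 TPM in p63alpha cultures (log2 fold change -0.19 ± 0.09, edgeR adjusted p 0.767). Pfdn2, a prefoldin subunit, was at 83.2 to 124 TPM in p63beta and 76.6 to 113 TPM in p63alpha epidermis (log2 fold change 0.28 ± 0.16, edgeR adjusted p 0.9999). Of the list for TTC5-dependent decay, 6 of 12 genes were positive in culture and 4 of 11 in epidermis, with medians of 0.01 and -0.01. Its gene with the lowest p in culture, Cnot7, a deadenylase of CCR4-NOT, was at 47.4 to 51.1 TPM in p63beta and 44.1 to 46.7 TPM in p63alpha cultures. The groups did not overlap, as for 7.52% of all genes tested in this direction. The log2 fold change was 0.09 ± 0.06 (edgeR adjusted p 0.8885) in culture and -0.17 ± 0.15 (edgeR adjusted p 0.9999) in epidermis.

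Microtubule-associated proteins had a positive log2 fold change for 11 of 25 genes in culture and 14 of 23 in epidermis, with medians of -0.02 and 0.04. Camsap2, which binds the minus ends of microtubules, was at 70.9 to 82.7 TPM in p63beta and 46.2 to 60.2 TPM in p63alpha cultures, a log2 fold change of 0.55 ± 0.13 with an edgeR adjusted p of 0.392. Map7, which recruits kinesin-1 to microtubules, was at 46.0 to 49.5 TPM in p63beta and 52.2 to 59.6 TPM in p63alpha cultures (-0.26 ± 0.08, edgeR adjusted p 0.591). Neither overlapped between genotypes in culture, where 7.52% of all genes were higher and 4.53% lower in p63beta without overlap. The enzymes that modify tubulin had a median of -0.02 in culture and -0.12 in epidermis, with 8 of 19 and 4 of 18 genes positive. The gamma, delta and epsilon tubulins with the gamma-tubulin complex, which starts new microtubules, had 5 of 12 and 4 of 12 positive. The stathmins and severing enzymes, which take microtubules apart, had 4 of 9 positive in culture and 2 of 8 in epidermis.

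The gene whose level was most like that of Tubb2b was Tubb2a. Over the 14 libraries, with the mean of each table removed, their log2 CPM had a Pearson r of 0.847 among 9299 genes compared, and the pair shares reads. Next came Atp1b3, a sodium pump subunit, with 0.811, Cpa4, a carboxypeptidase, with 0.808, 2310030G06Rik with 0.795 and Msl3, a subunit of a histone acetyltransferase complex, with 0.791. The points share libraries and the keratinocyte contrast that chose Tubb2b, so these values only describe. Within the 6 keratinocyte libraries Tubb2a and Tubb2b had an r of 0.833, and within the 8 epidermis libraries 0.874. The lowest correlation among the 6 genes over the 14 libraries was between Tubb4b and Tubb2a, 0.086. It joins opposite signs, with an r of 0.538 within the epidermis libraries and -0.786 within the keratinocyte libraries.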

How the data were processed

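RNA was measured by stranded mRNA sequencing. The keratinocyte counts deposited by the authors are read pairs per RefSeq gene, per the file headers from featureCounts 1.5.2 (strand setting 2), and the authors deposited FPKM made from them. For epidermis the authors deposited expected counts and TPM per gene from salmon, per the submitters' processing notes, which also name STAR, DESeq2 and mm10. The authors deposited log2 fold changes with an adjusted p-value per gene; the header of the epidermis table states the opposite direction, but 90.3% of its genes have the sign of p63beta over p63alpha, and that table is not quoted. The 14 per-library columns of these tables were not used. Epidermis columns named WT or KO were read as p63alpha and p63beta through the header of the keratinocyte counts.

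Here, expected counts were rounded and keratinocyte FPKM rescaled to TPM. Keratinocytes and epidermis were each fitted separately in edgeR 4.0.16 (R 4.3.3; TMM, filterByExpr, robust quasi-likelihood F test, genes called at a Benjamini-Hochberg adjusted p under 0.05 over all genes), with fold changes as p63beta over p63alpha. Alternatives were RLE size factors, no filter, no robust estimation, DESeq2 1.42.0, limma 3.58.1 with pseudocounts of 1 and 0.1 on the log2 scale of FPKM (keratinocytes) or TPM (epidermis), each library left out, a replicate block and a term for the kind of epidermis column name. Scripts were tested on simulated data.

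Deviations of keratinocyte cultures with the same replicate number in the labels correlated at 0.553, 0.47 and 0.129 over 13820 genes. The numbers were therefore taken as pairs in the within-pair differences and the replicate block, but not in the main fit, which held genotype alone. For culture 3, other numbers correlated as well, at 0.14 and 0.159.

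The members and lists were chosen with earlier results of these data known. Named are the 6 members, the other alpha and beta tubulins, called list genes, genes of the 2 lowest p per list with a mean of at least 5 CPM, and the 5 genes most like Tubb2b; of the list genes, the text gives a part, picked after values were seen.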

Additional observations from a re-analysis of the deposited data

Results flagged for a closer look

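Tubb4b in p63alpha epidermis had 1 library far from the others of its group: EP08 was at 838.7 TPM, against 650 to 680 TPM in EP07, WT3 and EP09. It was found among 12 groups of 4 libraries, and chance alone gives such a library in about 1 of 20 groups. EP08 was also the highest p63alpha epidermis library for the other 5 beta tubulin genes.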

How the results depend on the processing

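The precision is set by 3 or 4 libraries a group, and reads shared between near-copies limit Tubb2a, Tubb2b and Tubb4b. In keratinocytes 14 genes passed; DESeq2 gave 211, the replicate block 37, and leaving out 1 library 1 to 4. Tubb2b was at -0.77 and lost its call without a filter (-0.78, adjusted p 0.067), in limma with a pseudocount of 1 (-0.76, adjusted p 0.0888) or 0.1 (-0.78, adjusted p 0.0574), and without any 1 library (-0.82 to -0.75). It kept its call with RLE size factors, without robust estimation, with DESeq2 and with the replicate block, which left Tubb2a uncalled (-0.51, adjusted p 0.0925) and changed no other call among the members. In epidermis 32 genes passed; DESeq2 gave 152, the EP-numbered libraries alone 8, and leaving out 1 library 10 to 28. None of the 6 members was called in epidermis under any setting run. Tubb5, at 0.00 there, was at -0.002 without a filter, -0.18 in limma with a pseudocount of 1, -0.185 with 0.1, -0.035 with the EP-numbered libraries and -0.32 to 0.33 with 1 library left out. Tubb4b, at 0.09 there, was at -0.009 in limma with either pseudocount. The limma scale on TPM moved the median of all genes to -0.087 (pseudocount 1) and -0.104 (pseudocount 0.1), against -0.004 in edgeR; the cause of the reversals was not tested beyond this. As a share of counts without division by length, Tubb2b made up 2.86% of the 6 genes in p63beta cultures and 4.24% in p63beta epidermis, against 3.02% and 3.92% of the TPM. By counts Tubb5, with a transcript of 2649 bases, made up 25.03% in p63beta and 28.2% in p63alpha epidermis, above Tubb2a, with 1610 bases, at 23.6% and 22.0%. In epidermis no paired analysis was possible because its columns carry no replicate number of the labels.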
